A study of Mus musculus with 8 samples.

Results

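The genes described are 10 imprinted genes, chosen by name: H19, Dlk1, Meg3, Peg3, Peg10, Mest, Plagl1, Grb10, Cdkn1c and Phlda2. Of these 10 genes, 9 had at least 1 named probe on the array, with 18 probes in all among 41174 probes, and H19 was not analysed here. The probes of 7 members, Dlk1, Mest, Peg10, Plagl1, Grb10, Cdkn1c and Phlda2, rose well above background on each array of 1 or more groups and were tested among 13613 genes. Meg3 and Peg3 were below that level in every group and have no test.

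An imprinted gene is transcribed mainly from the maternal or mainly from the paternal copy, a choice set by DNA methylation that differs between egg and sperm and is kept through later cell divisions. Many imprinted genes act on growth, metabolism or the balance between dividing and differentiated cells, and several are active in the developing brain. Dlk1, Peg3, Peg10, Mest and Plagl1 are known as paternally expressed, while H19, Meg3, Cdkn1c and Phlda2 are known as maternally expressed. Grb10 is transcribed from the maternal copy in most tissues and from the paternal copy in neurons. An array probe measures the RNA of both copies together, so none of the values below speaks to allelic use.

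The cells were N31, a line of neural progenitor cells (NPC) made from embryonic stem cells of the mouse, and every sample carried forced expression of either W20 or EGFP, the fluorescent protein used as control. The series, by its title, concerns faster reprogramming through bacterial proteins, and the question stated for the arrays is what forced W20 does to expression. The 4 groups of 2 arrays each were EGFP NPC, W20 NPC, EGFP cells 72 h after the start of reprogramming and W20 cells 72 h after the start. The progenitors were kept with EGF and bFGF at 10 ng/ml each. Reprogramming cells received 40 ng/ml Dox throughout: NPC medium was used for 48 h, and a medium holding 1000 U/ml LIF and 10% KSR for the remaining 24 h. Only 1 line was studied, and no label tells whether replicate arrays stem from independent cultures, so a p-value here reflects only how much these arrays vary, which may be technical.

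Processed signals are in intensity units, and levels are log2 relative to the array's 75th percentile, which lay between 827 and 938 units. Per array, 57% to 62.4% of spots were well above background, and the lowest signal called well above background was 15.7 to 25.2 units. A gene was called where its adjusted p (limma, Benjamini-Hochberg over all 13613 genes) was under 0.05. Replicate arrays correlated at 0.9989 to 0.9992 and the median standard error (SE) of a difference was 0.0491. With spike-in scaling 39.8% of the genes called between W20 and EGFP at 72 h were higher, against 53.9% with the scaling used. The NPC arrays lay on 1 slide and the 72 h arrays on another, so stage and slide cannot be told apart. On each slide the EGFP arrays held positions 1 and 2 and the W20 arrays positions 3 and 4, so position and W20 cannot be told apart. Of 8 markers of neural progenitors, Fabp7 was well above background on 5 arrays, with 1 in EGFP NPC and 0 in W20 NPC. Nes, Vim, Sox2, Msi1, Pax6, Sox9 and Slc1a3 were so on all 8 arrays. With W20 2 of the 8 rose and 2 fell in NPC, where 31.8% of all genes tested rose and 23.7% fell. At 72 h 1 rose and 2 fell, where 28.5% of all genes rose and 24.3% fell. Over the 72 h 2 rose and 3 fell with EGFP, where 36.1% of all genes rose and 33.9% fell. With W20 3 rose and 3 fell over that time, where 37.5% of all genes rose and 37.2% fell. Fabp7, among those that rose, entered the test only through its 72 h arrays, which favours a rise. With EGFP the mean log2 level of Sox9 went from 1.57 to -1.29 and that of Pax6 from -1.41 to 0.6. Cell identity was not tested. Of 8 markers of pluripotent cells 6 had a probe: Zfp42, Dppa5a and Utf1 were well above background on 8 arrays, Esrrb on 6, Tdgf1 on 1 and Pou5f1 on 0. The summed level of these 6, in multiples of the array's 75th percentile, was 0.835 to 0.849 in EGFP NPC and 0.662 to 0.678 in W20 NPC. At 72 h it was 0.581 to 0.614 in EGFP cells and 0.475 to 0.488 in W20 cells.

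Of 10 members, 7 had a start site window in the RefSeq table of assembly GRCm38.p6: Dlk1, Meg3, Peg3, Mest, Plagl1, Grb10 and Phlda2. The 250 bases before the start are shown for Mest and Plagl1, whose levels moved most in opposite directions over the 72 h with EGFP. Only a window outside the gene's annotated span is shown. For Mest this was 1 of 3 windows, and the other 2 were not outside that span. Letters are in lower case and each CG dinucleotide, the site of DNA methylation, is in capitals. The Mest window is chr6:30733256-30733505 on the plus strand of GRCm38.p6 and the Plagl1 window is chr10:13090582-13090831, also on the plus strand.
Mest: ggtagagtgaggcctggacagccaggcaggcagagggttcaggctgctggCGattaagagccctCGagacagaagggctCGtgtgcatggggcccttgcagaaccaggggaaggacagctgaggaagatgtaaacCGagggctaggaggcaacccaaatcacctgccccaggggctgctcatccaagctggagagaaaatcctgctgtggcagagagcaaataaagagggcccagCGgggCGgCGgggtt
Plagl1: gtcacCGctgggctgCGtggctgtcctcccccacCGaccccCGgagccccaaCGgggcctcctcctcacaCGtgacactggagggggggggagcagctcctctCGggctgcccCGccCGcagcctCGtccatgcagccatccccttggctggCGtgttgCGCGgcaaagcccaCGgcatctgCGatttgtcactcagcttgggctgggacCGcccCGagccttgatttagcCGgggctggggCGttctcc
The Mest window shown held 7 CG dinucleotides, the other 2 Mest windows 14 each and the Plagl1 window 19, against a median of 6 over 32851 windows of the same length. Which of the 3 Mest starts its probe measures is not given in the sources used here. The letters GGGGCCCC, a palindrome bound by the PLAGL1 protein and therefore the same on both strands, were found in 0.889% of all windows and, among the windows of the members, in that of Peg3 only. TATAAA, searched on both strands, was found in 12.4% of all windows and in neither sequence shown. The arrays carry no methylation, so these letters are a description of the loci and not of their state in these cells.

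W20 progenitors had less RNA of Mest, Dlk1, Peg10 and Grb10 than EGFP progenitors and more of Phlda2. At 72 h Dlk1 showed the widest difference of the members, 5.24-fold lower with W20, while the difference in Mest had shrunk from 4.07-fold to 1.25-fold. Over the 72 h Mest, Dlk1, Grb10 and Phlda2 fell both with EGFP and with W20. Plagl1 rose with both, but it entered the test only through its 72 h arrays, which favours a rise. The plot of levels by array shows these levels.

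**Figure D1:**
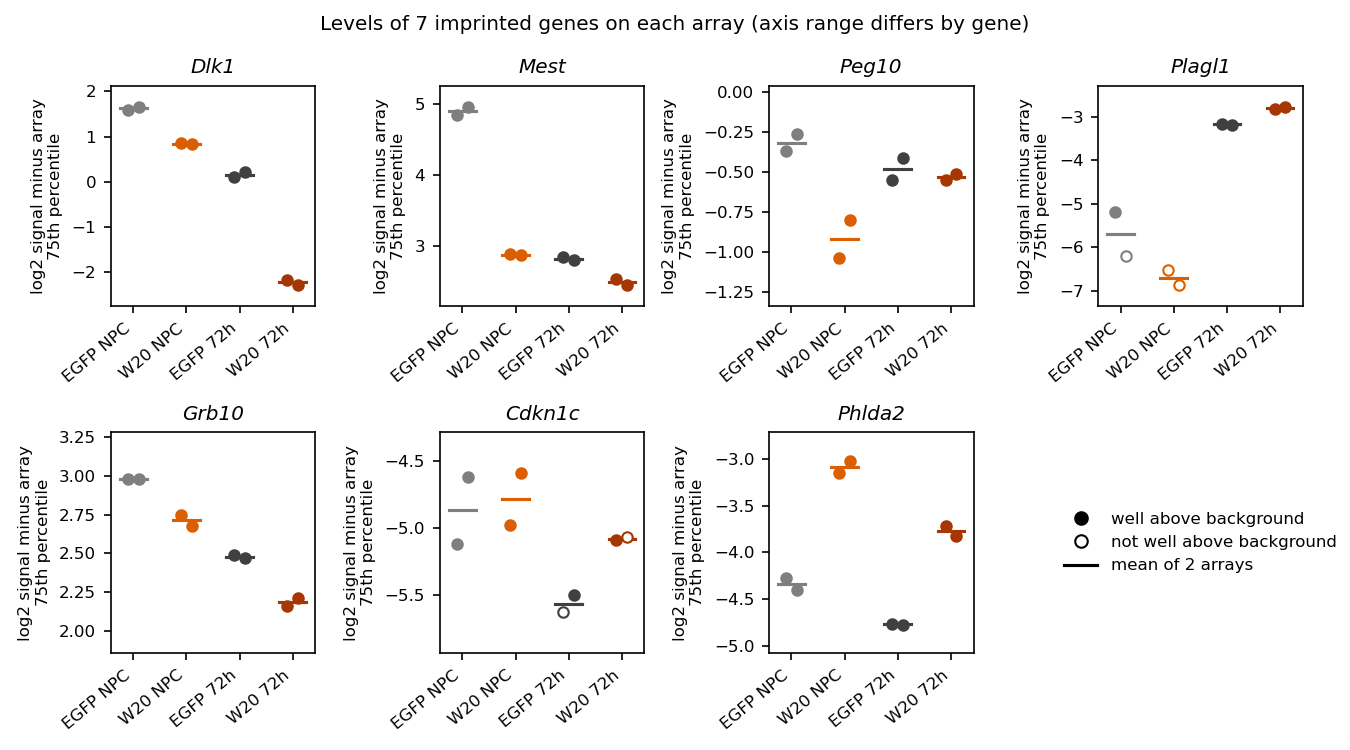
Level (log2 signal minus the array's 75th percentile) of the brightest probe of each of the 7 tested members on all 8 arrays, by group, with a point per array (open where not well above background), a line for the mean of 2 arrays and an axis range of its own for each gene. Group means of Dlk1 run from 1.63 in EGFP NPC to -2.23 in W20 cells at 72 h, Mest stands highest in EGFP NPC (4.91), and the NPC arrays of Plagl1, mostly open symbols, lie below its 72 h arrays.

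Dlk1 codes for a transmembrane protein with EGF-like repeats, related to Notch ligands, that is shed from the cell and known to hold progenitors undifferentiated. Its signal was 2678 and 2743 units in EGFP NPC, 1583 and 1519 in W20 NPC, 1015 and 1045 in EGFP cells at 72 h, and 183 and 170 in W20 cells at 72 h. The 4 groups did not overlap, and each step in that order was lower than the one before. Dlk1 fell by 0.78 ± 0.05 (SE, 2 arrays per group) on the log2 scale with W20 in NPC, or 1.72-fold (adjusted p = 0.000196). At 72 h it fell by 2.39 ± 0.05 with W20, or 5.24-fold (adjusted p = 2.14e-05). Only 25 of 13613 genes, or 0.184%, differed by more in that comparison. Over the 72 h Dlk1 fell 2.76-fold with EGFP (adjusted p = 4.93e-06) and 8.39-fold with W20 (adjusted p = 2.93e-07). The W20 effect went from -0.78 in NPC to -2.39 at 72 h, a larger fall, with a log2 difference of -1.60 ± 0.07 (adjusted p = 0.000246).

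Meg3, the long non-coding RNA of the same domain, lies on chromosome 12 with 2 genes between it and Dlk1 in the RefSeq order. Its 5 probes gave 3.17 to 13.3 units and were well above background on 0 of 8 arrays. Rian, another non-coding RNA of that domain, gave 3.35 to 5.35 units and was likewise well above background on 0 of 8 arrays. Dlk1 was thus measured in all 4 groups while neither non-coding RNA was above background in any. No direction can be given for either. The 3 genes most like Dlk1 over the 8 arrays, among 3619 whose group means also spanned at least 1 log2 unit, were Sh2d3c (Pearson r = 0.9989), Gramd1c (0.9983) and Il18 (0.998). The 8 arrays share slides and fall into 4 groups, so these correlations describe 4 group levels more than 8 separate points.

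Mest codes for a protein of the alpha/beta hydrolase fold and is widely expressed in embryonic mesoderm. Its signal was 25486 and 27157 units in EGFP NPC, 6505 and 6237 in W20 NPC, 6707 and 6257 in EGFP cells at 72 h, and 4796 and 4527 in W20 cells at 72 h. Both EGFP NPC arrays stood far above the other 6, the signals of W20 NPC and of EGFP cells at 72 h overlapped, and W20 cells at 72 h were lowest. In NPC Mest fell by 2.03 ± 0.05 on the log2 scale with W20, or 4.07-fold (adjusted p = 5.35e-05), and 96 genes, or 0.705%, differed by more. At 72 h it fell by 0.32 ± 0.05, or 1.25-fold (adjusted p = 0.00331). The fall over 72 h was 4.26-fold with EGFP (adjusted p = 1.4e-06) and 1.31-fold with W20 (adjusted p = 0.000685). The W20 effect went from -2.03 in NPC to -0.32 at 72 h, a smaller fall. The difference of 1.70 ± 0.07 (adjusted p = 0.000231) was opposite in sign to that of Dlk1.

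Copg2, a subunit of the coat of transport vesicles and the next gene to Mest, gave 3610 and 3390 units in EGFP NPC, 3100 and 2930 in W20 NPC, 4000 and 3700 in EGFP cells at 72 h, and 3860 and 3670 in W20 cells at 72 h. It fell by 0.19 on the log2 scale with W20 in NPC (adjusted p = 0.0127), a much smaller change than that of Mest. Its change over 72 h with EGFP was 0.07 (adjusted p = 0.225), whereas Mest fell. The genes most like Mest were Meis2 (r = 0.9948), Pdgfra (0.9899) and Mettl27 (0.9875), over the same 8 arrays and 3619 candidates. Pdgfra, the receptor for platelet-derived growth factor, is a marker of mesenchymal cells and of oligodendrocyte precursors.

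Markers of fibroblasts and other mesenchyme, like Dlk1 and Mest, were mostly lower with W20 at each stage. Of 8 such genes 6 fell and 0 rose with W20 in NPC, where 23.7% of all genes tested fell and 31.8% rose. At 72 h 5 fell and 1 rose, where 24.3% of all genes fell and 28.5% rose. The difference of the W20 effects was called higher for 5 and lower for 1, the direction of Mest (1.70) and not of Dlk1 (-1.60), where 14.1% of all genes were called higher and 16.8% lower. Their summed level, in multiples of the array's 75th percentile, was 148 to 169 in EGFP NPC, 101 to 103 in W20 NPC, 136 to 139 in EGFP cells at 72 h and 90.8 to 93.6 in W20 cells at 72 h. Col1a2 weighs most in this sum, with a mean log2 level of 7.05 in EGFP NPC, followed by Col3a1 at 4.24. The summed level and the means of Col1a1, Col1a2, Col3a1, Postn and Thy1 were higher in EGFP cells at 72 h than in W20 NPC. Dlk1 was lower there, as were Twist2 and Fbln1. Of the 8 markers, Lum was well above background on 2 of 2 EGFP NPC arrays and on 0 in each of the other groups, and Postn on 0 in W20 cells at 72 h and on 2 of 2 in each of the others. Lum thus entered the test only through EGFP NPC, which favours a fall with W20 in NPC and a higher difference of the W20 effects. It is 1 of the 6 counted as falling in NPC and 1 of the 5 counted as higher for that difference. Their part in the differences of Dlk1 and Mest was not tested. Falls with W20 were not particular to this list, beside the same shares over all genes. Both tested muscle markers fell at each stage. Of 4 tested markers of pluripotent cells 3 fell and 1 rose in NPC, and 2 fell and 1 rose at 72 h. Of 3 tested trophoblast markers 2 fell in NPC, Elf5 entering the test only through EGFP NPC, and 1 fell at 72 h. Of 5 tested endoderm markers 1 fell and 1 rose in NPC, and 0 were called at 72 h. In a bulk culture fewer cells of a type and less RNA per cell cannot be told apart.

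Peg10, derived from a retrotransposon and known for its need in the placenta, gave 681 and 727 units in EGFP NPC, 427 and 488 in W20 NPC, 640 and 678 in EGFP cells at 72 h, and 563 and 580 in W20 cells at 72 h. W20 NPC were lowest and did not overlap with any other group. Peg10 fell by 0.60 ± 0.09 on the log2 scale with W20 in NPC, or 1.52-fold (adjusted p = 0.0029). At 72 h its difference was -0.05 ± 0.09 (adjusted p = 0.662, 95% interval -0.28 to 0.18). It rose 1.31-fold over 72 h with W20 (adjusted p = 0.0101), and its change with EGFP was -0.16 ± 0.09 (adjusted p = 0.165). The W20 effect went from -0.60 in NPC to -0.05 at 72 h, a difference of 0.55 ± 0.13 (adjusted p = 0.0265). This call ended without any filter on dim probes (adjusted p = 0.0574). Leaving out a single array also ended it: the adjusted p was 0.0815 without EGFP NPC replicate 2 and 0.0803 without EGFP 72 h replicate 1. It was 0.0611 and 0.0739 without replicate 1 and replicate 2 of W20 at 72 h.

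Sgce, which codes for epsilon-sarcoglycan and is the next gene to Peg10, gave 35500 and 35000 units in EGFP NPC, 26300 and 25500 in W20 NPC, 39500 and 38400 in EGFP cells at 72 h, and 27400 and 26300 in W20 cells at 72 h. Both W20 groups lay below both EGFP groups. Sgce fell by 0.42 on the log2 scale with W20 in NPC (adjusted p = 0.000263) and by 0.38 at 72 h (adjusted p = 0.000383), so unlike Peg10 it was called at both stages. Its difference between the stages was 0.04 (adjusted p = 0.535).

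Plagl1, a zinc finger transcription factor also known as Zac1 that restrains division, rose over the 72 h. Its signal was 24.2 and 11.8 units in EGFP NPC, 9.5 and 7.26 in W20 NPC, 105 and 99.6 in EGFP cells at 72 h, and 116 and 120 in W20 cells at 72 h. In NPC the probe was well above background on 1 of the 2 EGFP arrays and on 0 of the 2 W20 arrays, and at 72 h on all 4. The NPC arrays lay near background and the 72 h arrays far above them, with no overlap. Plagl1 was at least 6.16-fold higher at 72 h than in NPC with W20 (adjusted p = 8.92e-05). With EGFP it rose by 2.53 ± 0.32 on the log2 scale, or 5.77-fold (adjusted p = 0.000725). That fold is not exact, since 1 of the 2 EGFP NPC arrays was not well above background. Plagl1 entered the test only through its 72 h arrays, which favours a rise, so these p-values are no independent support for it. Under normexp, a model-based background correction whose added offset of 50 units shrinks differences between low signals, these rises were 1.34 with W20 and 0.72 with EGFP on the log2 scale, both called. Its second probe gave 3.33 to 5.34 units and was well above background on 0 of 8 arrays.

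Between W20 and EGFP, Plagl1 had a log2 difference of -1.0 ± 0.32 in NPC (adjusted p = 0.0398). This call concerns signals near background and rests on few arrays, so it is given with its changes. It ended with quantile scaling (adjusted p = 0.0597), with dim probes left in (adjusted p = 0.0763), with the authors' value table (adjusted p = 0.11) and within the NPC slide alone (adjusted p = 0.111). It also ended without W20 NPC replicate 1 (adjusted p = 0.0683), W20 NPC replicate 2 (adjusted p = 0.16) or any of the 72 h arrays (adjusted p = 0.0649 to 0.0664). The difference was -0.49 without EGFP NPC replicate 1, -1.51 without EGFP NPC replicate 2 and -0.36 under normexp, all called. At 72 h the difference was 0.36 ± 0.32 (adjusted p = 0.374), which passed under normexp (0.27, adjusted p = 0.0124) and within the 72 h slide alone (adjusted p = 0.00653). The difference between the stages was 1.37 ± 0.45 (adjusted p = 0.069), which passed under normexp (0.62, adjusted p = 0.00259) and without EGFP NPC replicate 1 (0.86, adjusted p = 0.0336) or EGFP NPC replicate 2 (1.88, adjusted p = 0.00509).

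Phactr2, a phosphatase and actin regulator on chromosome 10 with 3 genes between it and Plagl1, gave 83.9 and 77 units in EGFP NPC, 75.8 and 70.8 in W20 NPC, 323 and 287 in EGFP cells at 72 h, and 351 and 347 in W20 cells at 72 h. As with Plagl1, every 72 h array lay above every NPC array. It rose by 1.85 on the log2 scale with EGFP (adjusted p = 2.84e-06) and by 2.32 with W20 (adjusted p = 7.51e-07). The genes most like Plagl1 over the 8 arrays were Nrarp (r = 0.9964), Entpd2 (0.9932) and Pga5 (0.9931). Nrarp codes for a regulator of the Notch pathway.

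Peg3, a zinc finger protein of the paternal copy, had 2 probes with 3.19 to 6.76 units, well above background on 0 of 8 arrays. Its neighbours Zim1 and Usp29 were likewise well above background on 0 of 8 arrays. No direction can be given for Peg3. The plot of dim probes sets these signals beside the lowest signal called well above background.

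**Figure D2:**
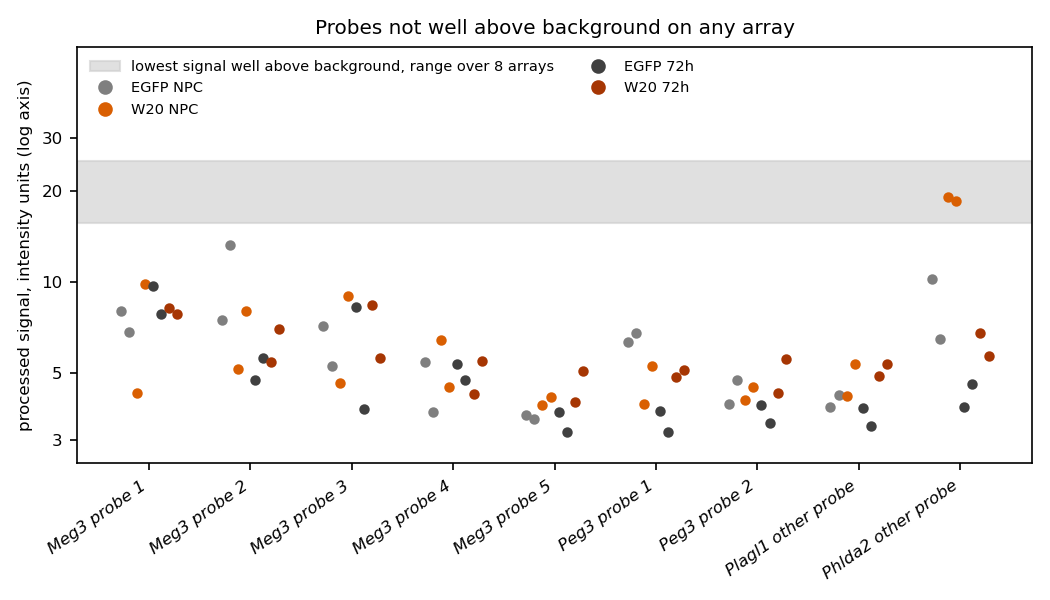
Processed signal (log scale, intensity units) on each of the 8 arrays for the probes of Meg3 and Peg3 and for the other probes of Plagl1 and Phlda2, with points for arrays coloured by group. The grey band spans the lowest signal called well above background, 15.7 to 25.2 units, and the Meg3 and Peg3 probes lie between 3.17 and 13.3 units, below it.

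Grb10 codes for an adaptor that binds the insulin and IGF1 receptors and dampens their signal. Its brightest probe gave 6940 and 6890 units in EGFP NPC, 5907 and 5452 in W20 NPC, 5284 and 5001 in EGFP cells at 72 h, and 3695 and 3817 in W20 cells at 72 h. The 4 groups did not overlap. Grb10 fell by 0.26 ± 0.04 on the log2 scale with W20 in NPC, or 1.2-fold (adjusted p = 0.00196), and by 0.30 ± 0.04 at 72 h, or 1.23-fold (adjusted p = 0.00143). Over 72 h it fell 1.41-fold with EGFP (adjusted p = 7.59e-05) and 1.45-fold with W20 (adjusted p = 4.25e-05). The W20 effect at 72 h differed from that in NPC by -0.03 ± 0.05 (adjusted p = 0.646, 95% interval -0.16 to 0.09).

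Grb10 had 3 probes, each well above background and tested over 20338 probes. The second gave 266 and 258 units in EGFP NPC, 225 and 206 in W20 NPC, 157 and 149 in EGFP cells at 72 h, and 127 and 122 in W20 cells at 72 h. The third gave 168 and 188, then 172 and 165, then 103 and 106, and then 65.8 and 88.4 in the same order of groups. The fall over 72 h was called for all 3 probes, at -0.50, -0.84 and -0.83 with EGFP and at -0.53, -0.73 and -1.08 with W20. Lower levels with W20 were called for the brightest and the second probe at both stages. For the third probe the W20 difference was -0.05 ± 0.14 in NPC (adjusted p = 0.775) and -0.30 ± 0.14 at 72 h (adjusted p = 0.132).

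**Figure D3:**
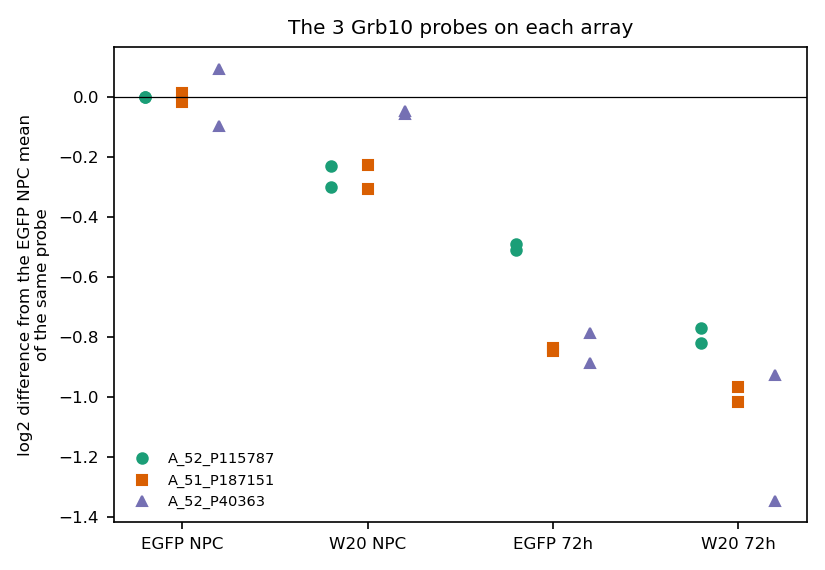
Log2 difference of each array from the EGFP NPC mean of the same probe, for the 3 Grb10 probes (A_52_P115787 the brightest, A_51_P187151 the second, A_52_P40363 the third), by group, with a symbol per array. All 3 probes lie lower at 72 h than in NPC for each kind of cell, and the W20 NPC arrays of the third probe lie between the 2 EGFP NPC arrays.

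Ddc and Cobl, each with 2 genes between it and Grb10 on chromosome 11, moved the other way over the 72 h. Ddc, which codes for the enzyme that makes dopamine and serotonin from their precursors, gave 75.3 and 80 units in EGFP NPC and 308 and 296 in EGFP cells at 72 h. With W20 it gave 68.4 and 66.2 units in NPC and 249 and 261 at 72 h. Its 72 h arrays lay above its NPC arrays, and it rose by 1.89 on the log2 scale with EGFP (adjusted p = 1.34e-06) and by 1.99 with W20 (adjusted p = 6.18e-07). Cobl, an actin nucleator, was at least 6.73-fold higher at 72 h with EGFP (adjusted p = 1.11e-05) and at least 8.22-fold higher with W20 (adjusted p = 8.53e-06), its probe not being well above background in NPC. Cobl therefore entered the test only through its 72 h arrays, which favours a rise.

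Cdkn1c, the cyclin-dependent kinase inhibitor p57, was measured near background. Its signal was 25.3 and 35.5 units in EGFP NPC, 27.8 and 35.3 in W20 NPC, 18.9 and 19.9 in EGFP cells at 72 h, and 24.3 and 24.7 in W20 cells at 72 h. Both NPC groups overlapped, and EGFP cells at 72 h were lowest. The probe was well above background on both arrays of EGFP NPC and of W20 NPC, and on 1 of 2 arrays of each 72 h group. The difference between W20 and EGFP was 0.09 ± 0.19 in NPC (adjusted p = 0.732) and 0.49 ± 0.19 at 72 h (adjusted p = 0.0806). The latter passed within the 72 h slide alone (adjusted p = 0.00809) and without EGFP NPC replicate 1 or 2 (adjusted p = 0.0374 each). Over 72 h Cdkn1c fell by 0.70 ± 0.19 with EGFP (adjusted p = 0.0198), and its change with W20 was -0.29 ± 0.19 (adjusted p = 0.216). Cdkn1c entered the test only through its NPC arrays, which favours a fall. The fall with EGFP was no longer called under normexp (-0.38, adjusted p = 0.0622) or without EGFP NPC replicate 2 (-0.44, adjusted p = 0.0723). Without replicate 1 or replicate 2 of EGFP at 72 h the adjusted p was 0.0884 and 0.0521.

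Phlda2, a small protein with a pleckstrin homology domain known to restrain growth of the placenta, was the 1 member called higher with W20 in NPC. Its signal was 45.6 and 41.3 units in EGFP NPC, 99 and 105 in W20 NPC, 34.6 and 33 in EGFP cells at 72 h, and 62.9 and 58.3 in W20 cells at 72 h. At each stage both W20 arrays lay above both EGFP arrays. Phlda2 rose by 1.25 ± 0.07 on the log2 scale with W20 in NPC, or 2.38-fold (adjusted p = 0.000116). At 72 h it rose by 1.00 ± 0.07 with W20, or 1.99-fold (adjusted p = 0.000197). Under normexp the 2 rises were 0.46 and 0.52, both called. Over 72 h Phlda2 fell 1.35-fold with EGFP (adjusted p = 0.00175) and 1.61-fold with W20 (adjusted p = 0.000192, and -0.32 on the log2 scale under normexp). The difference between the stages was -0.25 ± 0.09 (adjusted p = 0.0937, 95% interval -0.49 to -0.02).

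The other Phlda2 probe gave 10.2 and 6.47 units in EGFP NPC, 19.1 and 18.6 in W20 NPC, 3.85 and 4.58 in EGFP cells at 72 h, and 6.77 and 5.66 in W20 cells at 72 h. It was not well above background on both arrays of any group and was not tested. The genes most like Phlda2 were Zbtb7b (r = 0.9856), Rbp4 (0.9819) and Il4i1 (0.9815), over the same arrays and candidates.

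Cdkn1c and Phlda2 lie on chromosome 7 with 2 genes between them, among these Slc22a18, a membrane transporter. Kcnq1ot1, the non-coding RNA of the domain, lies beyond Cdkn1c with 1 gene between. Slc22a18 gave 25.6 to 49.5 units over the 8 arrays and was called in none of the 5 comparisons (adjusted p = 0.472 to 0.965). Kcnq1ot1 gave 577 to 1360 units. It fell by 0.81 ± 0.21 over 72 h with W20 (adjusted p = 0.0128), and its change with EGFP was -0.56 ± 0.21 (adjusted p = 0.0523). Its differences between W20 and EGFP were 0.40 in NPC (adjusted p = 0.154) and 0.14 at 72 h (adjusted p = 0.586). Nap1l4, a histone chaperone next to Phlda2, rose by 0.13 ± 0.03 with W20 in NPC (adjusted p = 0.0179), against 1.25 for Phlda2.

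**Figure D4:**
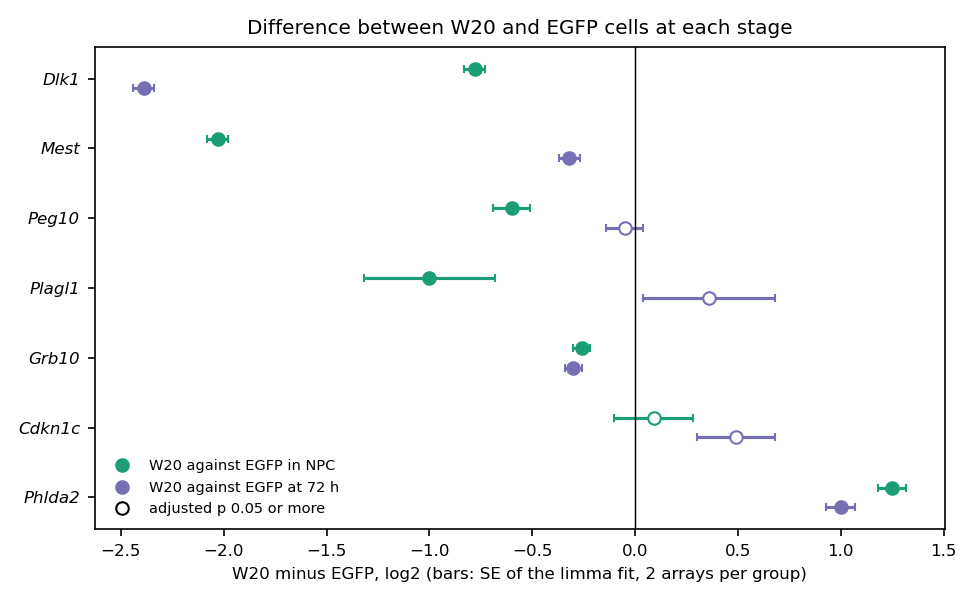
Log2 difference between W20 and EGFP cells for the 7 tested members in NPC and at 72 h, with points for the estimate (open where not called) and bars for its SE from the limma fit of 2 arrays per group. Dlk1 lies at -0.78 in NPC and -2.39 at 72 h, Mest at -2.03 and -0.32, and Phlda2 at 1.25 and 1.00.

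Plagl1 entered the test only through its 72 h arrays and Cdkn1c only through its NPC arrays, which favours a rise of the first and a fall of the second over the 72 h, so neither is counted here. Of the 5 members well above background on all 8 arrays, Dlk1, Mest, Peg10 and Grb10 were lower with W20 in NPC and Phlda2 was higher, where 23.7% of all genes were lower and 31.8% higher. At 72 h Dlk1, Mest and Grb10 were lower, Phlda2 was higher and Peg10 was not called, where 24.3% of all genes were lower and 28.5% higher. These counts describe 5 chosen genes and are no test of imprinted genes as a class.

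Over the 72 h, Dlk1, Mest, Grb10 and Phlda2 fell and Peg10 was not called with EGFP, where 33.9% of all genes fell and 36.1% rose. With W20 the same 4 fell and Peg10 rose, where 37.2% of all genes fell and 37.5% rose. The difference of the W20 effects was called higher for Mest and Peg10 and lower for Dlk1, where 14.1% of all genes were called higher and 16.8% lower. The 5 comparisons share arrays, so their values are given side by side and not set against each other.

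Among 68 other imprinted genes, 60 had a probe and 47 were tested. With W20 in NPC 19 of the 47 fell, 11 rose and 17 were not called, with a median of -0.05. Of all genes tested 23.7% fell and 31.8% rose there, with a median of 0.04. Slc38a4, an amino acid transporter, fell by 1.23 ± 0.05 on the log2 scale (2.34-fold, adjusted p = 7.37e-05). Nap1l5, a relative of histone chaperones, fell by 1.24 ± 0.08 (2.36-fold, adjusted p = 0.000204, and by 0.69 under normexp), and Magel2, a partner of ubiquitin ligases lost in Prader-Willi syndrome, by 1.12 ± 0.05 (2.17-fold, adjusted p = 9.31e-05). Gatm, an enzyme of creatine synthesis, rose by 0.60 ± 0.07 (1.51-fold, adjusted p = 0.00104). Cobl and Nnat were called higher as well, but no array of either NPC group was well above background for them, and under normexp their differences were -0.01 and -0.07.

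At 72 h 17 of the 47 were lower with W20, 10 were higher and 20 were not called, with a median of 0. Of all genes tested 24.3% were lower and 28.5% higher there, with a median of 0.03. Slc38a4 fell by 1.35 ± 0.05 (2.55-fold, adjusted p = 4.6e-05). Igf2, the insulin-like growth factor near H19 in the genome, fell by 1.07 ± 0.06 (2.1-fold, adjusted p = 0.000121). In NPC Igf2 was lower with W20 as well (-0.97 ± 0.06, adjusted p = 0.000168), and the difference between the stages was not called (-0.10, adjusted p = 0.411). Igf2r, the receptor that clears Igf2, fell by 1.05 ± 0.07 (2.07-fold, adjusted p = 0.000174, and by 0.43 under normexp). Dhcr7, the last enzyme of cholesterol synthesis, rose by 0.58 ± 0.04 (1.5-fold, adjusted p = 0.000171), and Ins2, an insulin gene, by 0.64 ± 0.11 (adjusted p = 0.00546, and by 0.41 under normexp). Cobl rose by 0.61 ± 0.14 (adjusted p = 0.0146), a call that ended when replicate 2 at 72 h was left out, of EGFP (adjusted p = 0.0714) or of W20 (adjusted p = 0.0661).

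Over the 72 h the other imprinted genes had 23 higher and 10 lower of 47 with EGFP (median 0.15), where 36.1% of all genes rose and 33.9% fell. With W20 they had 27 higher and 13 lower (median 0.20), where 37.5% of all genes rose and 37.2% fell. Cobl and Nnat, counted as higher in both comparisons, entered the test only through their 72 h arrays, which favours a rise. Peg12 rose 9.12-fold with EGFP (adjusted p = 2.25e-07) and 10.3-fold with W20 (adjusted p = 1.3e-07). Igf2 fell 5.25-fold with EGFP (adjusted p = 1.66e-06) and 5.63-fold with W20 (adjusted p = 7.88e-07), and Igf2r fell 2.3-fold and 3.81-fold (the latter by 1.00 on the log2 scale under normexp). Dcn, the matrix proteoglycan decorin, fell 2.44-fold with EGFP (adjusted p = 3.95e-05) and Gatm 3.02-fold with W20 (adjusted p = 6.37e-06). Nnat was at least 1.6-fold higher at 72 h with EGFP (adjusted p = 5.77e-05), a call that ended under normexp (0.13, adjusted p = 0.363).

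**Figure D5:**
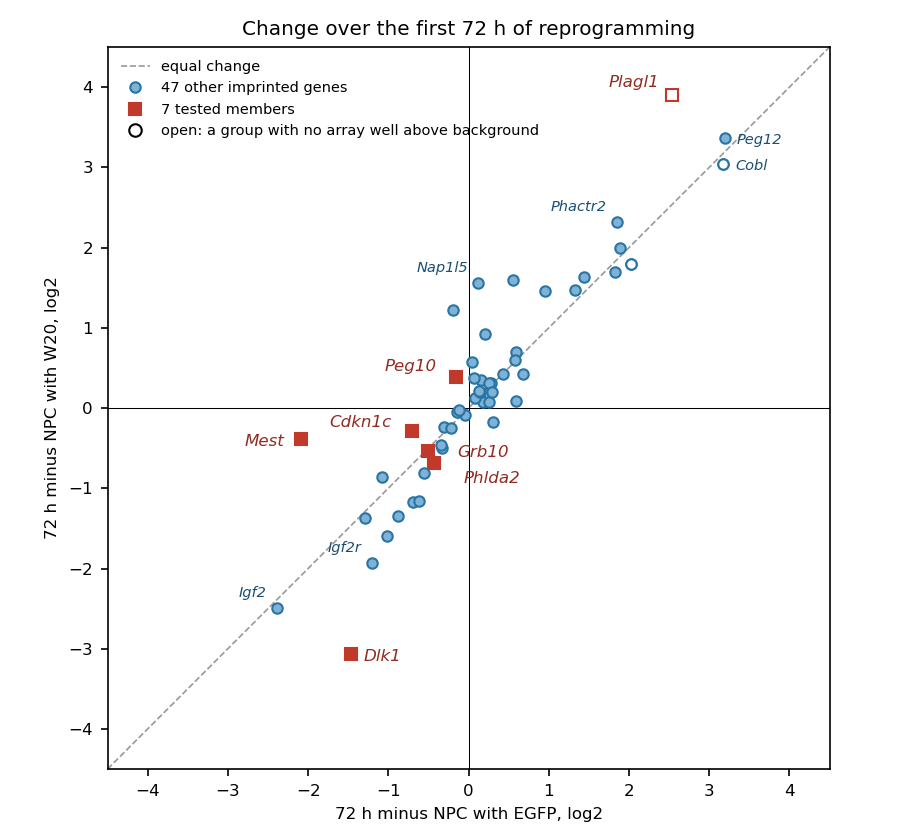
Log2 change from NPC to 72 h with EGFP (horizontal) and with W20 (vertical) for the 7 tested members (squares) and 47 other imprinted genes (circles), with the dashed line marking equal change. Dlk1 lies below the line (-1.46 and -3.07), Mest above it (-2.09 and -0.39), and Plagl1 stands above 0 on both axes. Open symbols mark genes with no array well above background in a group, Plagl1 (W20 NPC) among them, whose plotted position has no exact value.

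The difference of the W20 effects was called for 18 of the 47 other imprinted genes, 9 higher and 9 lower, where 14.1% of all genes were called higher and 16.8% lower. Nap1l5 had 1.44 ± 0.12 (adjusted p = 0.000852), Ins2 1.41 ± 0.16 (adjusted p = 0.00229) and Pde4d, a cAMP phosphodiesterase, 1.04 ± 0.15 (adjusted p = 0.00477), against 1.70 for Mest. Their values under normexp were 0.94, 0.88 and 0.66, and the Pde4d call ended with the mean over its probes (0.87, adjusted p = 0.189). Igf2r had -0.73 ± 0.10 (adjusted p = 0.0037), a call that ended under normexp (-0.21, adjusted p = 0.185), Gatm -0.57 ± 0.10 (adjusted p = 0.00912) and Qpct -0.54 ± 0.09 (adjusted p = 0.00711), against -1.60 for Dlk1.

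Of 18 genes that write, erase or protect imprints, 17 had a probe and 16 were tested. With W20 in NPC 4 of the 16 rose and 4 fell, where 31.8% of all genes rose and 23.7% fell. At 72 h 5 rose and 1 fell, where 28.5% of all genes rose and 24.3% fell. Zfp57, the zinc finger protein that protects methylated imprints, was the one that fell at 72 h, by 1.00 ± 0.13 on the log2 scale (2-fold, adjusted p = 0.00178, and by 0.46 under normexp). The methyltransferase genes Dnmt3b and Dnmt1 rose by 0.52 ± 0.04 (adjusted p = 3e-04) and 0.25 ± 0.04 (adjusted p = 0.00342) at 72 h, and Tet1, which oxidises methylcytosine, by 0.30 ± 0.09 (adjusted p = 0.038). With spike-in scaling the calls of Dnmt1 (adjusted p = 0.111) and Tet1 (adjusted p = 0.0724) ended. The Tet1 call also ended with dim probes left in (adjusted p = 0.0571) and without EGFP 72 h replicate 1 (0.20, adjusted p = 0.164) or either W20 array at 72 h (adjusted p = 0.11 and 0.117). In NPC Dnmt3a fell by 0.46 ± 0.05 with W20 (adjusted p = 0.000769), Tet2 by 0.67 ± 0.14 (adjusted p = 0.0104, and by 0.40 under normexp) and Tet3 by 0.26 ± 0.07 (adjusted p = 0.024). The Tet3 call ended with the mean over its probes (-0.06, adjusted p = 0.627), with spike-in scaling, with dim probes left in and without EGFP NPC replicate 2 or either W20 NPC array (adjusted p = 0.0501 to 0.116).

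Dnmt1 rose by 0.25 ± 0.04 in NPC (adjusted p = 0.00296), a call that ended with spike-in scaling (adjusted p = 0.078). Atrx, a chromatin remodeller, rose by 0.43 ± 0.06 (adjusted p = 0.00236) and Dnmt3l, a partner of the methyltransferases, by 0.31 ± 0.10 (adjusted p = 0.0408). Under normexp neither was called (0.22, adjusted p = 0.0643, and 0.05, adjusted p = 0.639), and the Dnmt3l call also ended without W20 NPC replicate 1 (0.19, adjusted p = 0.159). Without EGFP NPC replicate 1 or 2 or either W20 array at 72 h, within the NPC slide, with spike-in scaling, with the authors' value table or with dim probes left in it ended as well (adjusted p = 0.061 to 0.129).

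Over the 72 h 7 of these 16 genes rose and 2 fell with EGFP, where 36.1% of all genes rose and 33.9% fell. With W20 7 rose and 4 fell, where 37.5% of all genes rose and 37.2% fell. Tet2 rose 3.05-fold with EGFP (adjusted p = 0.000168) and 6.07-fold with W20 (adjusted p = 1.68e-05), with normexp values of 0.94 and 1.63 on the log2 scale. Dnmt3b rose 1.73-fold (adjusted p = 1.72e-05) and 2.73-fold (adjusted p = 1.23e-06), and 0.37 and 0.94 on the log2 scale under normexp. Zfp57 fell 2.02-fold with EGFP (adjusted p = 0.000767) and 3.22-fold with W20 (adjusted p = 6.81e-05). The difference of the W20 effects was called higher for 4 of the 16 and lower for 2, where 14.1% of all genes were called higher and 16.8% lower. Called higher were Dnmt3b (0.66 ± 0.06, adjusted p = 0.000949), Dnmt3a (0.50 ± 0.07, adjusted p = 0.00446), Tet2 (0.99 ± 0.20, adjusted p = 0.0165) and Tet3 (0.48 ± 0.10, adjusted p = 0.018). The Tet2 call ended without W20 NPC replicate 2, EGFP 72 h replicate 1 or W20 72 h replicate 2 (adjusted p = 0.0514 to 0.0516). The difference was called lower for Zfp57 (-0.67 ± 0.18, adjusted p = 0.0405) and Atrx (-0.38 ± 0.09, adjusted p = 0.0232). Both of these calls ended under normexp (adjusted p = 0.348 and 0.467), with spike-in scaling (adjusted p = 0.0709 and 0.119), with dim probes left in (adjusted p = 0.0819 and 0.0519) and without single arrays. For Zfp57 these were any of the NPC arrays, EGFP 72 h replicate 2 or W20 72 h replicate 1, with differences of -0.70 to -0.51. For Atrx they were either EGFP NPC array, W20 NPC replicate 2 or either EGFP 72 h array (adjusted p = 0.0533 to 0.072).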

How the data were processed

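Total RNA of N31 cells was labelled with Cy3 and hybridised to Agilent whole mouse genome arrays, 2 arrays for each of 4 groups taken from the sample titles. The deposited scanner files hold spot intensity on a linear scale from Agilent Feature Extraction 10.7.3.1, background-corrected, per the file headers. Of 45018 spots per array 43379 were no controls, and they made up 41174 probes. No spot was saturated, and 95 to 137 outlier spots per array were left out. The number of arrays limits the precision.

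Signals were taken as log2 minus the array's 75th percentile and averaged per probe. Accessions matched a RefSeq gene table (GRCm38.p6) for 27584 probes and 18842 genes, and 13590 probes stayed unnamed and unused. The brightest probe per gene was used, and the 13613 genes that rose well above background on each array of 1 or more groups were tested. Where a probe was well above background on no array of a group, that group's value was raised, array by array, to the dimmest signal still called well above background (or kept, if higher), and the ratio to the other group is given as "at least N-fold". One model of the 4 group means was fitted with limma 3.58.1 (R 4.3.3) to the 8 arrays together (4 residual and 1.75 prior degrees of freedom), with 2-sided p-values adjusted by Benjamini-Hochberg over all genes in each of 5 comparisons. It was tested on simulated data. All 10 members were named, and from each of the lists of other imprinted genes and of imprint factors the 3 called genes with the highest and the 3 with the lowest difference per comparison. Genes near a member were named for their position, and Tet3 as the remaining called imprint factor in the difference of the W20 effects, after its value was seen. Members and lists were chosen with earlier results of these data known.

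The deposited value table holds log2 values computed by the authors, whose centring is not given in the sources used here. After a shift of 9.66 to 9.71 the NPC columns equalled their own arrays within 0.01 for 99.8% of probes, so its zero lies near the 75th percentile and its direction is that of the signal. Column medians were -3.78 and -3.73 (EGFP NPC), -3.82 and -3.78 (W20 NPC), -3.77 and -3.88 (EGFP at 72 h) and -3.83 and -3.91 (W20 at 72 h). The 72 h replicate 1 columns equalled the mean of the NPC columns within 0.001, and the 72 h replicate 2 columns did not match their own arrays, so the table was an alternative for NPC only. Other scalings, background corrections, filters, probe rules and left-out arrays gave 17 further fits, and 2 fits within a slide were added after the data were seen. Normexp used the median signal with an offset of 50, in place of the mean signal, which is not used here.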

Additional observations from a re-analysis of the deposited data

Results flagged for a closer look

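For 3 members the effect of W20 at 72 h differed from that in NPC by a test of the difference itself (limma, adjusted over all 13613 genes, 2 arrays per group). In the same test 14.1% of all genes were called higher and 16.8% lower. For Dlk1 the W20 effect was lower at 72 h by a log2 difference of -1.60 (adjusted p = 0.000246), going from -0.78 in NPC to -2.39, with both W20 arrays below both EGFP arrays at each stage. For Mest it was higher at 72 h by 1.70 (adjusted p = 0.000231), going from -2.03 to -0.32, again with both W20 arrays below both EGFP arrays at each stage. For Peg10 it was higher at 72 h by 0.55 (adjusted p = 0.0265), going from -0.60 to -0.05, and this call ended when any of 4 arrays was left out or with dim probes left in. Stage and slide cannot be told apart, so the difference between stages is also one between slides.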

How the results depend on the processing

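For 91 differences of single genes, 1398 of 1495 values under another setting kept their direction and their side of the threshold, 78 lost a call, 10 gained one and 9 changed sign. The number of members called stayed within 1.5 times in each of the 5 comparisons. With spike-in scaling 4761 genes were called between W20 and EGFP in NPC (7563 as reported), 4210 at 72 h (7188) and 1921 for the difference between stages (4206); the cause was not tested. Under normexp the sign turned for Cdkn1c in NPC (-0.15) and over 72 h with W20 (0.02), for the Phlda2 difference between stages (0.06), and for Cobl (-0.01) and Nnat (-0.07) in NPC. It also turned for Cdkn1c in NPC without EGFP NPC replicate 1 (-0.17) or W20 NPC replicate 2 (-0.11; range without single arrays -0.17 to 0.34), for Peg10 at 72 h without EGFP 72 h replicate 2 (0.02; range -0.12 to 0.02), and for the Grb10 difference between stages without W20 NPC replicate 1 (0). Of those 9 values, Cobl and Nnat in NPC were called as reported and the others were not. With the strict filter Plagl1 and Cdkn1c had no value. The slide as a block was not run, since slide and stage split the arrays alike. Replicate numbers paired no samples: correlations of same-numbered deviations ran from -0.09 to 0.15. With the replicate number as a replicate block, 7533 genes were called in NPC, and among the members Cdkn1c at 72 h (adjusted p = 0.0305) and Peg10 over 72 h with EGFP (adjusted p = 0.044) passed. Signals near background limit Plagl1 in NPC and Cdkn1c.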
